A study of Homo sapiens with 12 samples.

Results

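RNA levels of the PEA3 factors ETV1, ETV4, and ETV5 and of 7 feedback inhibitors of the ERK pathway (DUSP4, DUSP6, SPRY1, SPRY2, SPRY4, SPRED1, and SPRED2) were followed across 4 cell lines. These 10 genes, of 25369 in the counts, were taken by symbol. The set was chosen by the measured level of ETV1, which was low in the R109K line only, so the levels of ETV1 are given as a description, with no test. The samples were U2OS cells, a human osteosarcoma line, in which a Tet-On system turned on a stably integrated pTRE2-hyg construct. The pTRE line held the empty vector, the WT line HA-tagged wild-type E2F1, the R109K line E2F1 with a lysine for the arginine that the methyltransferase PRMT1 modifies, and the KK line E2F1 with lysines for the pair of arginines that PRMT5 modifies. All lines, pTRE included, were grown under G418 and hygromycin B, received doxycycline at 1 ug/ml for 24 hours, and kept their own E2F1 gene. Poly(A) RNA was sequenced from 3 biological replicates of each line. Whether a line was a clone or a pool is not given in the sources used here, so the construct and the cells that carry it cannot be told apart.

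ETV1, ETV4, and ETV5 form the PEA3 group of ETS transcription factors, and their transcription follows signaling from receptor tyrosine kinases through RAS and ERK, partly through loss of the repressor capicua (CIC). The same signal induces its own brakes. DUSP4 and DUSP6 are phosphatases that remove phosphate from ERK in the nucleus and in the cytoplasm, respectively, Sprouty proteins act between the receptor and RAF, and Spred proteins bring neurofibromin to RAS. E2F1 is a transcription factor of cell cycle genes, and arginine methylation is one of its modifications.

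Reads on genes numbered from 11500537 to 31040903 per sample, and levels are given as CPM, counts scaled to a common library size with TMM factors. WT replicate 2 had the lowest total, with 31.2% of its reads on genes against 59% to 65.7% in the other samples. Its share of reads outside genes was 58.7%, against 23.6% to 29.6% in the other samples. E2F1 RNA, which takes in the construct and the cells' own transcript, averaged 91.2 CPM in pTRE (SD 9.43), 1811 in WT (SD 445), 1158 in R109K (SD 196), and 1316 in KK (SD 187, n = 3 each), so the E2F1 lines stood apart from pTRE. Gene counts do not read the altered codons, so which E2F1 line carries which construct was not checked. R109K had less E2F1 RNA than WT in every replicate (log2 fold change -0.65, adjusted p = 0.0577 from edgeR), and its part in the differences of R109K below was not tested. Of the osteoblast markers examined, SP7, IBSP, BGLAP, and DMP1 were at or near 0 in all lines, and RUNX2 averaged 9.08 to 17.0 CPM. COL1A2 averaged at most 0.290 CPM in any line. ALPL averaged 1.18 CPM in pTRE, 1.16 in WT, 1.35 in R109K, and 1.85 in KK. The summed level of that list of 10 was 4695 to 5895 CPM in pTRE and 1026 to 1745 CPM in the E2F1 lines, mainly through COL1A1 and SPARC. The 9 epithelial markers summed to 789 to 977 CPM in pTRE and 372 to 669 CPM in the E2F1 lines. Most of this sum was KRT8 and KRT18, which averaged 503 and 288 CPM in pTRE. KRT8 averaged 238 CPM in WT, 301 in R109K, and 268 in KK. CLDN4 averaged 46.65 CPM in pTRE, 6.683 in WT, 8.522 in R109K, and 8.176 in KK. KRT18 and EPCAM overlapped pTRE in every E2F1 line, so the lower sum was not shared by all epithelial markers. The 8 blood and endothelial markers summed to at most 3.35 CPM in any sample. The part of these markers in the results below was not tested, and in bulk RNA fewer cells of a type and less RNA per cell cannot be told apart.

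**Figure D1:**
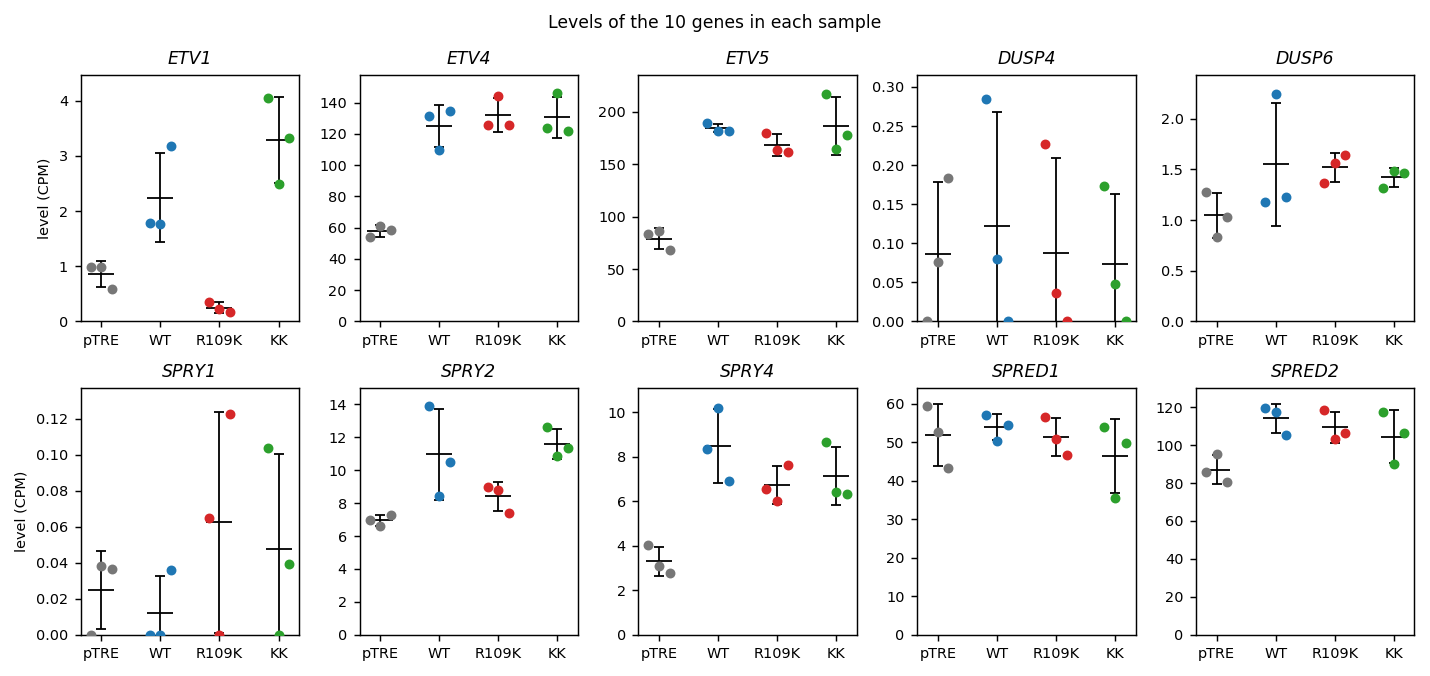
Level of each of the 10 genes in CPM (linear axes from 0) in the 3 samples of each line, with points in the order of replicates 1 to 3 and black bars for the mean and SD. ETV4, ETV5, and SPRY4 were higher in every E2F1 sample than in every pTRE sample, ETV1 was lowest in R109K, and DUSP4 and SPRY1 had counts of at most 8.

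ETV1 RNA was scarce in every line and differed in direction between them. In replicates 1, 2, and 3, ETV1 stood at 0.991, 0.988, and 0.588 CPM in pTRE, 1.78, 1.77, and 3.18 in WT, 0.357, 0.218, and 0.164 in R109K, and 4.05, 2.497, and 3.32 in KK. All R109K samples lay below all pTRE samples, and all WT and KK samples lay above them. The raw counts behind these levels numbered 16 to 26 for pTRE, 22 to 88 for WT, 4 to 11 for R109K, and 52 to 117 for KK. In order, the line means were 0.246 CPM in R109K (SD 0.0994), 0.856 in pTRE (SD 0.232), 2.24 in WT (SD 0.812), and 3.29 in KK (SD 0.776, n = 3 each), and only the neighbours WT and KK overlapped. As a description, the log2 fold change of ETV1 against pTRE was 1.41 in WT (SE 0.35), 1.94 in KK (SE 0.34), and -1.75 in R109K (SE 0.42). Leaving out each replicate in turn gave 1.04 to 1.56 in WT, 1.73 to 2.10 in KK, and -2.13 to -1.54 in R109K. Between lines the values were -3.15 for R109K against WT, -3.69 for R109K against KK, and 0.54 for KK against WT. The gene spans 13930854 to 14031050 on the minus strand of chromosome 7 (GRCh37).

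The other PEA3 factors, ETV4 and ETV5, rose in all 3 E2F1 lines to similar levels, R109K included. ETV4 stood at 53.9, 61.1, and 58.7 CPM in pTRE, 131, 110, and 135 in WT, 126, 145, and 126 in R109K, and 124, 146, and 122 in KK. Every E2F1 sample was above every pTRE sample, and the E2F1 lines overlapped each other. Its log2 fold change against pTRE was 1.12 in WT (SE 0.12, adjusted p = 4.43e-06), 1.18 in KK (SE 0.12, adjusted p = 2.61e-06), and 1.19 in R109K (SE 0.12, adjusted p = 4.29e-06). ETV5 stood at 83.1, 86.2, and 67.9 CPM in pTRE, 189, 182, and 182 in WT, 180, 163, and 161 in R109K, and 217, 164, and 178 in KK. Again no E2F1 sample overlapped pTRE, and the 3 R109K samples lay just under the 3 WT samples. The log2 fold change of ETV5 was 1.22 in WT (SE 0.13, adjusted p = 3.41e-06), 1.24 in KK (SE 0.13, adjusted p = 3.03e-06), and 1.09 in R109K (SE 0.13, adjusted p = 1.84e-05). These 3 comparisons share the pTRE samples. ETV4 lies at 41605212 to 41656988 of chromosome 17 and ETV5 at 185764103 to 185828107 of chromosome 3, both on the minus strand, where ETV4 overlaps DHX8 on the opposite strand and ETV5 overlaps DGKG on its own. How the counting treated strand and shared bases is not given in the sources used here, so reads could in part be exchanged between these neighbours. ETV5 and SPRY4 also overlap the antisense genes ETV5-AS1 and SPRY4-AS1 in the annotation. Reads from a gene and its antisense partner could likewise not be told apart if strand was not used. DUSP6 overlaps a long noncoding RNA gene on the opposite strand and SPRED2 overlaps one on its own strand, so their reads could in part belong to these.

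The transcription start regions of ETV5 and SPRY4 are shown because both genes rose by over 2-fold in each E2F1 line and because each holds words of the capicua motif. Each line gives 300 bases of GRCh37, from 340 to 41 bases before the start of the canonical GENCODE transcript, 5′ to 3′ on the strand of the gene. Capitals mark the words TGAATGAA and TGAATGGA or their reverse complements and, in SPRY4, also a word of the E2F motif, TTTCCCGC.
ETV5, chr3:185826919-185827218, minus strand: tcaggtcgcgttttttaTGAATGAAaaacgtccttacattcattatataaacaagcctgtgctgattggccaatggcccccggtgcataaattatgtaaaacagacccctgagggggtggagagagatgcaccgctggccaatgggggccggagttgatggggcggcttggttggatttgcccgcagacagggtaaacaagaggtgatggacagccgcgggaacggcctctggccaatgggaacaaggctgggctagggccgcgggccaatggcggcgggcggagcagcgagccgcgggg
SPRY4, chr5:141704627-141704926, minus strand: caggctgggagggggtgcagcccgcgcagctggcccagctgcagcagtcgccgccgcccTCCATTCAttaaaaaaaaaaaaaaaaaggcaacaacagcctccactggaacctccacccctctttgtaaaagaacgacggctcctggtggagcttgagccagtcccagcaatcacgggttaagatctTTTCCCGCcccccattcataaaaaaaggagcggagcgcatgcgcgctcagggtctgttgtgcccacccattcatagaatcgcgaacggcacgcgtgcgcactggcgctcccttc
In the wider window from 900 bases before to 100 after the start, on both strands, these capicua words occurred in 3 of the 9 genes whose promoters were examined, all but ETV4. ETV5 had 1 (323 bases before the start), SPRY4 had 1 (281 before), and DUSP4 had 2 (375 and 205 before). Over all 21526 promoters read, 10.3% held at least 1 such word. ETV1 held none in this window, and neither did DUSP6, SPRY1, SPRY2, SPRED1, or SPRED2. The E2F words searched were TTTCCCGC, TTTCGCGC, TTTGCCGC, and TTTGGCGC, which 8.09% of all promoters held. Of the 9 genes, SPRY4 (154 before the start) and DUSP4 (487 before) held 1. The PEA3 word AGGAAG was in 69.3% of all promoters and in 7 of the 9 genes, ETV1 among them (647 before) and ETV5 not among them. No match of 1 motif overlapped a match of another in these genes.

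**Figure D2:**
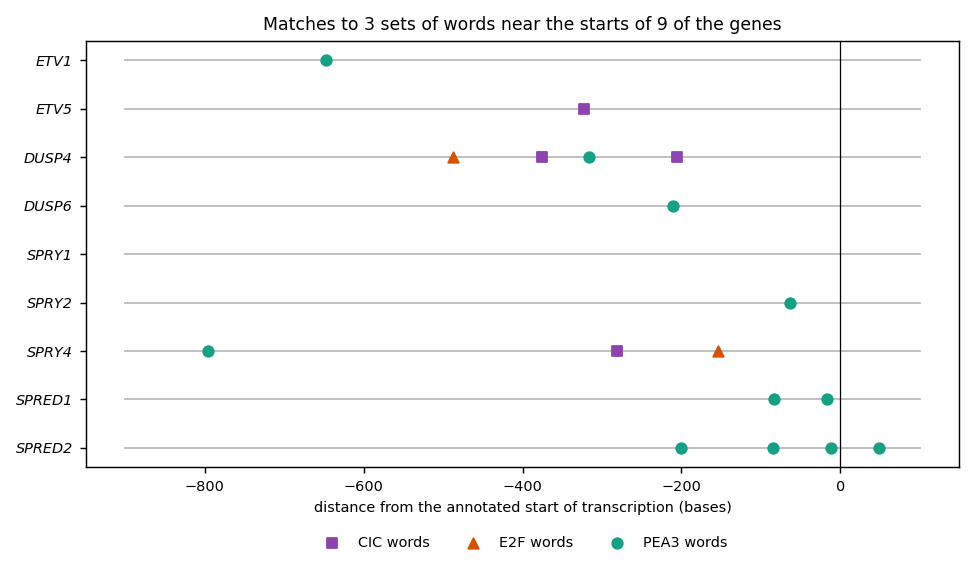
Matches to the capicua (CIC, squares), E2F (triangles), and PEA3 (circles) words near the annotated start of each of 9 genes, with the distance in bases on the horizontal axis and the start at 0. The capicua words lie between 375 and 205 bases before the start, in ETV5, DUSP4, and SPRY4.

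Of the ERK phosphatases, DUSP4 was close to absent from these cells and DUSP6 was low. DUSP4 had 0 to 8 reads in each sample and totals of 7 in pTRE, 9 in WT, 8 in R109K, and 6 in KK. A count of 0 allows up to 3 reads, or 0.0972 to 0.240 CPM across the samples, by counting error alone, so a difference between lines was not detectable at this depth. DUSP4 was among the genes that the filter on low counts removed. DUSP6, on chromosome 12 from 89741012 to 89746278, stood at 1.28, 0.836, and 1.03 CPM in pTRE, 1.18, 2.25, and 1.23 in WT, 1.36, 1.56, and 1.64 in R109K, and 1.31, 1.49, and 1.46 in KK. The samples of R109K and KK lay above those of pTRE, while WT overlapped pTRE and its highest value came from replicate 2, the sample with the fewest reads on genes. The log2 fold change of DUSP6 was 0.51 in WT (95% CI -0.15 to 1.17, adjusted p = 0.198), 0.44 in KK (-0.21 to 1.09, adjusted p = 0.289), and 0.53 in R109K (-0.11 to 1.18, adjusted p = 0.213), none of which passed the test on 22 to 43 reads per sample.

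SPRY4 rose in all 3 E2F1 lines, SPRY2 rose in WT and KK, and SPRY1 was close to absent. SPRY4, on chromosome 5 from 141689992 to 141706020, stood at 4.05, 3.08, and 2.79 CPM in pTRE, 8.37, 10.2, and 6.90 in WT, 6.55, 5.99, and 7.66 in R109K, and 8.65, 6.43, and 6.32 in KK. No E2F1 sample overlapped pTRE, and the E2F1 lines overlapped each other. Its log2 fold change was 1.35 in WT (SE 0.20, adjusted p = 0.000105), 1.12 in KK (SE 0.20, adjusted p = 0.000525), and 1.03 in R109K (SE 0.20, adjusted p = 0.00142). The call in R109K was lost without pTRE replicate 3 (0.92, adjusted p = 0.0104). SPRY2, on chromosome 13 from 80910111 to 80915261, stood at 6.98, 6.61, and 7.27 CPM in pTRE, 13.9, 8.43, and 10.5 in WT, 9.01, 8.83, and 7.41 in R109K, and 12.6, 10.9, and 11.4 in KK. All E2F1 samples exceeded all pTRE samples, with R109K nearest to pTRE. The log2 fold change of SPRY2 was 0.67 in WT (SE 0.17, adjusted p = 0.00553) and 0.74 in KK (SE 0.17, adjusted p = 0.0028), and in R109K it was 0.28 (95% CI -0.08 to 0.64, adjusted p = 0.251). These SPRY2 calls depended on the libraries. The WT call was lost without pTRE replicate 1, 2, or 3 (adjusted p = 0.0204, 0.0267, and 0.0155), without WT replicate 1 (log2 fold change 0.45, adjusted p = 0.0444), without WT replicate 3 (adjusted p = 0.0106), and in a fit of only the 6 samples compared (adjusted p = 0.0186). The KK call was lost without pTRE replicate 1 or 2 (adjusted p = 0.0123 and 0.0161) and without KK replicate 1 (adjusted p = 0.0157). SPRY1, on chromosome 4 from 124317950 to 124324915, had 0 to 3 reads per sample and totals of 2 in pTRE, 1 in WT, 5 in R109K, and 4 in KK, too few to be tested.

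The Spred genes were expressed at higher levels than the Sprouty genes and did not pass the test in any line. SPRED1, on chromosome 15 from 38545037 to 38649450, stood at 59.4, 52.6, and 43.3 CPM in pTRE, 56.9, 50.2, and 54.5 in WT, 56.5, 50.8, and 46.7 in R109K, and 53.8, 35.5, and 49.7 in KK. All 4 lines overlapped, with the lowest value in KK replicate 2. Its log2 fold change was 0.06 in WT (95% CI -0.27 to 0.39, adjusted p = 0.776), -0.16 in KK (-0.48 to 0.17, adjusted p = 0.459), and -0.01 in R109K (-0.34 to 0.31, adjusted p = 0.967). SPRED2, on chromosome 2 from 65537985 to 65659771, stood at 85.6, 95.5, and 80.3 CPM in pTRE, 120, 117, and 105 in WT, 119, 103, and 106 in R109K, and 117, 89.9, and 106 in KK. WT and R109K did not overlap pTRE, whereas KK did through replicate 2. The log2 fold change of SPRED2 was 0.39 in WT (SE 0.12, adjusted p = 0.0194), 0.26 in KK (SE 0.12, adjusted p = 0.105), and 0.33 in R109K (SE 0.12, adjusted p = 0.0566), and DESeq2 placed the WT value past the threshold (adjusted p = 0.00674).

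Per kilobase of the canonical transcript, the mean level over the 12 samples was 47.7 CPM for ETV4, 37.8 for ETV5, 23.0 for SPRED2, 6.99 for SPRED1, 4.15 for SPRY2, 1.31 for SPRY4, 0.382 for DUSP6, 0.257 for ETV1, 0.0166 for DUSP4, and 0.0141 for SPRY1. ETV4 and ETV5 thus supplied nearly all PEA3 factor RNA in every line on this scale, and ETV1 stood with DUSP6 near the lower end.

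Counted without ETV1, 7 of the other 9 genes passed the filter on low counts and were tested, and each count below is over those 7. At an adjusted p below 0.01, 4 were higher in WT than in pTRE (ETV4, ETV5, SPRY2, and SPRY4), where 14.8% of all 16625 tested genes were higher. In KK these 4 genes were higher as well, where 13.8% of all genes were, and in R109K 3 were higher (ETV4, ETV5, and SPRY4), where 10% of all genes were. None was lower in any line, where 11.4% (WT), 10.7% (KK), and 7.23% (R109K) of all genes were. With the further threshold of a change greater than 2-fold, ETV4, ETV5, and SPRY4 remained in each line, against 7.89% of all genes in WT, 7.01% in KK, and 4.64% in R109K. Replicates above all those of pTRE were found for 5 genes in WT and in KK and for 6 in R109K, against 25.2%, 24.9%, and 24.3% of all genes. The median log2 fold change of the 7 genes was 0.67 in WT, 0.74 in KK, and 0.53 in R109K, and that of all tested genes was 0.00, -0.01, and 0.00. In R109K, the 2-fold count was 1 without pTRE replicate 3 and 2 without pTRE replicate 2 or without R109K replicate 3, and in KK it was 2 without KK replicate 1.

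**Figure D3:**
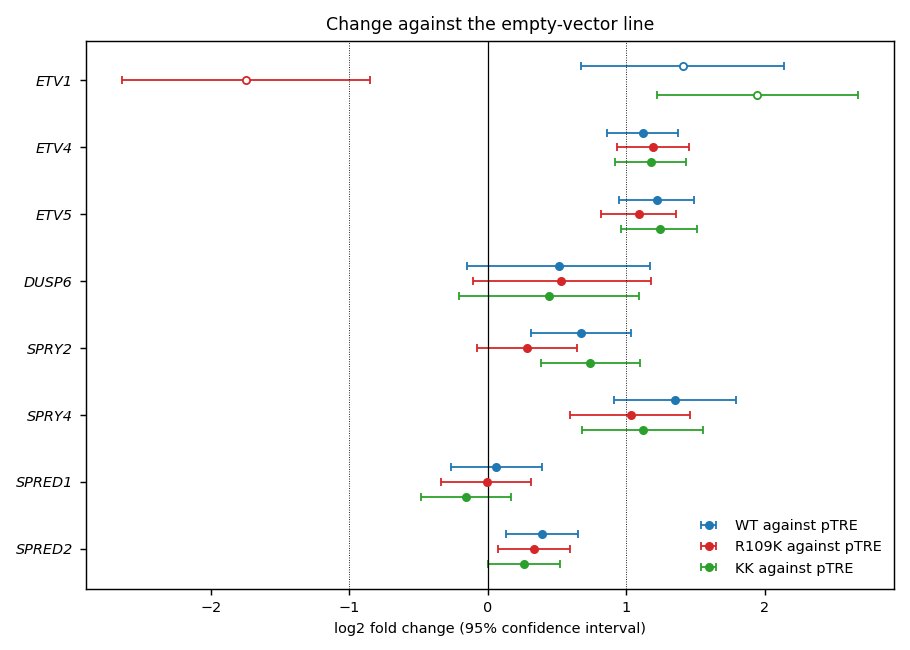
Log2 fold change against pTRE with its 95% confidence interval for the 8 genes that passed the filter, in WT (blue), R109K (red), and KK (green). Dotted lines mark a 2-fold change and open symbols mark ETV1, which chose the set. ETV4, ETV5, and SPRY4 lie beyond 1 in all 3 lines, and ETV1 in R109K lies at -1.75.

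The E2F1 lines were then compared with each other, to ask whether the arginine changes altered these levels. None of the 7 tested genes passed an adjusted p of 0.01 by edgeR, or by DESeq2, in R109K against WT, R109K against KK, or KK against WT. By edgeR, 0.71%, 0.132%, and 0.012% of all tested genes passed in these comparisons. This number depended on the method, with 118, 22, and 2 genes of 16625 by edgeR, 0, 3, and 0 in fits of only the 6 samples compared, and 546 of 16166, 256 of 16166, and 11 of 22767 genes by DESeq2. At an unadjusted p below 0.05 there was 1 of the 7 in R109K against WT and 1 in R109K against KK, SPRY2 in both, and 0 in KK against WT, where 3714, 2062, and 1415 of all genes had such a p. SPRY2 was lower in R109K by log2 fold changes of -0.39 against WT (95% CI -0.75 to -0.04, adjusted p = 0.187) and -0.46 against KK (-0.82 to -0.11, adjusted p = 0.221), and the R109K samples did not overlap those of KK. Replicates of R109K lay under all those of WT for 1 gene, ETV5 (14% of all genes), and under all those of KK for 1 gene, SPRY2 (11.4%).

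For ETV4 the interval of the difference was -0.18 to 0.33 between R109K and WT (log2 fold change 0.07, adjusted p = 0.732), -0.24 to 0.27 between R109K and KK (0.02, adjusted p = 0.985), and -0.19 to 0.31 between KK and WT (0.06, adjusted p = 0.858). The corresponding intervals of ETV5 were -0.40 to 0.14, -0.42 to 0.12, and -0.25 to 0.28. A difference of 2-fold, 1 on this scale, lies outside all 6 intervals. ETV1 chose the set by its low level in R109K, so its differences are not set against these intervals. SPRY4 was less tightly bounded, at -0.74 to 0.09 between R109K and WT (-0.32, adjusted p = 0.329) and -0.50 to 0.33 between R109K and KK (-0.09, adjusted p = 0.935). DUSP6 had the widest intervals, -0.62 to 0.66 and -0.53 to 0.73. SPRED1 and SPRED2 differed by between -0.22 and 0.15 over the 3 direct comparisons.

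**Figure D4:**
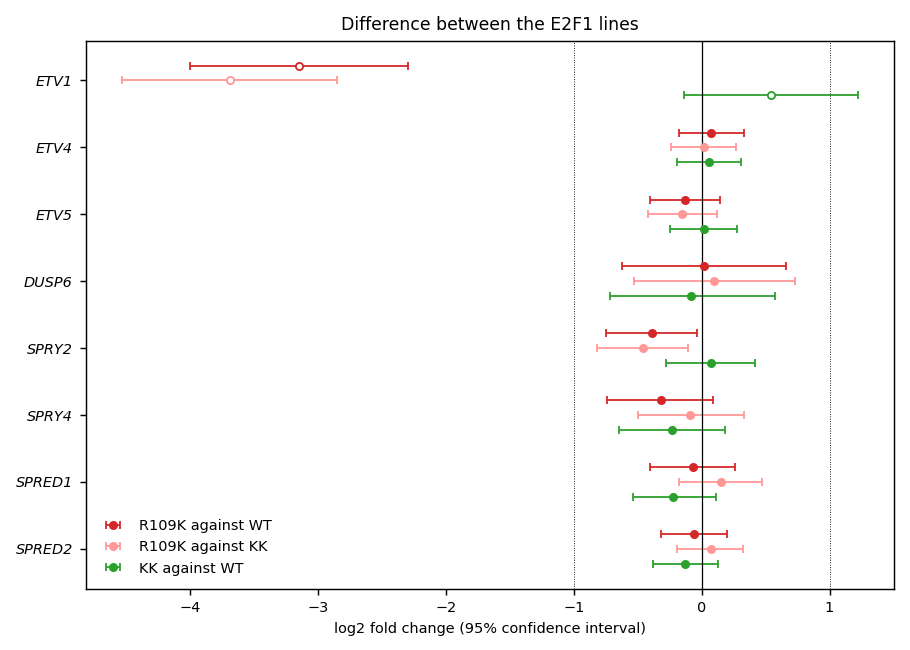
Log2 fold change between E2F1 lines with its 95% confidence interval for the 8 genes that passed the filter, for R109K against WT (dark red), R109K against KK (light red), and KK against WT (green). Open symbols mark ETV1, at -3.15 and -3.69 in the comparisons of R109K, and the intervals of the other genes lie within 1 of 0.

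Over the 13305 genes that averaged 50 counts or more, those whose log2 levels most resembled ETV1 over the 12 samples, by Pearson's r, were VWDE (0.922), SCG5 (0.921), TMEM87A (0.919), THBS1 (0.914), and HLCS (0.913). The 12 points are replicates of 4 lines, so these values describe the order of the lines more than 12 independent points. The genes were picked for the highest r with the ETV1 levels that chose the set. The list is thus a description, and regulation in common with ETV1 was not tested. VWDE averaged 1.84 CPM in pTRE, 4.11 in WT, 1.11 in R109K, and 3.85 in KK. THBS1, which encodes the matrix protein thrombospondin, averaged 316 CPM in pTRE, 334 in WT, 231 in R109K, and 462 in KK. On the same measure SPRY2 had an r of 0.63 with ETV1, ETV5 had 0.31, SPRY4 had 0.27, ETV4 had 0.14, and DUSP6, SPRED1, and SPRED2 had -0.04, -0.01, and 0.15.

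The inputs of the pathway were examined next, as lists of receptors and ligands. Of 18 receptor tyrosine kinases tested, 8 rose and 6 fell in WT, 8 rose and 4 fell in KK, and 8 rose and 4 fell in R109K at an adjusted p below 0.01, against 26.2%, 24.4%, and 17.3% of all genes in either direction. Without pTRE replicate 3, 3 fell in WT, and in R109K 5 rose without any 1 pTRE replicate or without R109K replicate 1 or 3, while 2 fell without R109K replicate 2. FGFR3, a receptor of fibroblast growth factors, rose with log2 fold changes of 2.35 in WT, 2.26 in KK, and 1.69 in R109K, and NTRK2, the receptor of the neurotrophin BDNF, rose by 3.06, 3.02, and 2.18. PDGFRB, a receptor of platelet-derived growth factor, fell in all 3 lines (-1.88, -2.27, and -1.92). Of 19 ligands tested, 10 rose and 2 fell in WT, 9 rose and 1 fell in KK, and 7 rose and 1 fell in R109K, where 14.8%, 13.8%, and 10% of all genes were higher. In R109K 4 rose without pTRE replicate 1 or without R109K replicate 1 or 2, and in WT 1 fell without pTRE replicate 1, 2, or 3 or WT replicate 3. FGF5 averaged 4.25 CPM in pTRE, 38.9 in WT, 24.5 in R109K, and 33.1 in KK (log2 fold change against pTRE 3.20 in WT, 2.53 in R109K, and 2.96 in KK). TGFA, a ligand of the EGF receptor, averaged 11.5 CPM in pTRE, 40.1 in WT, 30.4 in R109K, and 44.1 in KK (1.81, 1.40, and 1.94). FGF4 had 0 to 2 reads in the pTRE samples and stood at 7.16, 4.58, and 4.99 CPM in WT, 5.99, 4.22, and 4.58 in KK, and 2.07, 1.71, and 1.31 in R109K. Its R109K samples lay under those of WT and KK, with a log2 fold change of -1.72 against WT (adjusted p = 0.00517) and -1.53 against KK (adjusted p = 0.0175). The difference from WT did not pass without WT replicate 1 (adjusted p = 0.03), without R109K replicate 1, 2, or 3 (adjusted p = 0.0159, 0.0315, and 0.044), or in a fit of only those 6 samples (adjusted p = 0.044).

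Of 21 genes of the cascade from adaptor to ERK that were tested, 3 rose in WT (GAB1, MAP2K1, and RPS6KA3), 2 rose and 1 fell in KK (GAB1 and MAP2K1 higher, SHC1 lower), and 1 rose in R109K (GAB1). These counts lie near or under the shares of all genes, 14.8%, 13.8%, and 10% higher and 11.4%, 10.7%, and 7.23% lower, and GAB1 alone rose in WT without pTRE replicate 2 or WT replicate 1 and in KK without pTRE replicate 1. SHC1 was not called in KK without pTRE replicate 2 or 3 or KK replicate 1 or 3. GAB1, a docking protein under receptor kinases, rose by 1.25 in WT, 1.07 in KK, and 0.90 in R109K (adjusted p = 1.57e-05, 6.62e-05, and 0.000463). Each of its E2F1 samples, at 19.5 to 31.9 CPM, was above the pTRE samples, at 11.3 to 11.8 CPM. Of the 8 other dual-specificity phosphatases, 3 rose in each line, DUSP7 and DUSP10 in all of them, with DUSP5 in WT and DUSP9 in KK and R109K, and 1 rose in R109K without pTRE replicate 3 or R109K replicate 2. Of all genes, 14.8% (WT), 13.8% (KK), and 10% (R109K) were higher. DUSP7, an ERK phosphatase of the cytoplasm, averaged 39.7 CPM in pTRE, 93.2 in WT, 88.7 in R109K, and 95.8 in KK (log2 fold change 1.23, 1.16, and 1.27). Every E2F1 sample of DUSP7 was above every pTRE sample.

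Of 15 other feedback inhibitors, 4 rose and 2 fell in WT, 1 rose and 2 fell in KK, and 1 rose and 2 fell in R109K. The shares of all genes were 14.8% higher and 11.4% lower in WT, 13.8% and 10.7% in KK, and 10% and 7.23% in R109K. In WT 2 rose without pTRE replicate 1 or 3 or WT replicate 2, and in R109K 1 fell without pTRE replicate 1 or 3 or R109K replicate 1 or 2. DAB2IP, a RAS GTPase-activating protein, rose in all lines (0.84, 0.79, and 0.62), and LZTR1, an adaptor in RAS turnover, fell in all of them (-0.67, -0.71, and -0.83). FLRT3 fell in WT and KK (-1.42 and -1.59), and IL17RD, an inhibitor of FGF signaling also named Sef, fell in R109K (-1.09). FLRT3 in R109K (-0.88, adjusted p = 0.0331) and IL17RD in KK (-0.65, adjusted p = 0.06) also lay below every pTRE sample. Neither gene passed in R109K against WT (adjusted p = 0.309 for FLRT3 and 0.182 for IL17RD). CBL, RASA2, and RASA3 rose in WT. A fit blocked on the replicate number called neither CBL nor RASA2 (adjusted p = 0.0129 and 0.0143). RASA3, at 36.8, 38.4, and 33.1 CPM in WT and 24.1, 19.7, and 22.3 in R109K, was lower in R109K than in WT (log2 fold change -0.71, adjusted p = 0.00819). This difference was not past the threshold with the replicate number as a block (adjusted p = 0.0135), in a fit of only the 6 samples (adjusted p = 0.0511), without WT replicate 1 or 2 (adjusted p = 0.0336 and 0.0161), or without any R109K replicate (adjusted p = 0.0203 to 0.0538). Of 19 other ETS factors, 3 rose in WT (ELF4, ELK3, and ERG, by 0.55 to 0.69), 2 in KK (ELF4 and ERG), and 1 in R109K (ERG), near or under the 14.8%, 13.8%, and 10% of all genes higher, and none changed by over 2-fold. The count was 1 in WT without pTRE replicate 1 or WT replicate 1 or 3, 1 in KK without KK replicate 3, and 0 in R109K without pTRE replicate 1 or 2 or any 1 R109K replicate. The 1 to 4 genes named for these lists because few passed, other than DUSP7, DUSP10, GAB1, FLRT3, and IL17RD, were chosen after their values were seen. Calls of ERG, ELK3, CBL, RASA2, MAP2K1, RPS6KA3, SHC1, DUSP9, IL17RD, and, in R109K, DUSP10 were lost when single libraries were left out.

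The outputs of the pathway were examined last. Of 29 immediate-early and delayed ERK target genes tested, 11 rose and 3 fell in WT, 8 rose and 3 fell in KK, and 5 rose and 3 fell in R109K. The shares of all genes were 14.8%, 13.8%, and 10% higher and 11.4%, 10.7%, and 7.23% lower, so the 3 that fell are near them. In R109K 2 rose without pTRE replicate 2 or R109K replicate 1, and 3 rose without pTRE replicate 3. FOS, an immediate-early transcription factor, averaged 8.09 CPM in pTRE, 36.1 in WT, 13.7 in R109K, and 29.4 in KK, and rose in WT and KK (2.16 and 1.87, adjusted p = 9.46e-05 and 0.000333). LIF, a cytokine, fell in all lines (-1.48, -1.51, and -1.64). EPHA4, a receptor of ephrins, stood at 31.2, 30.4, and 30.5 CPM in WT, 34.9, 17.4, and 27.9 in KK, and 12.3, 10.1, and 13.0 in R109K, above the 4.86 to 7.06 CPM of pTRE throughout. It was lower in R109K than in WT (log2 fold change -1.38, adjusted p = 0.0037), and the value against KK was -1.18 (adjusted p = 0.0149). The call against WT was lost without WT replicate 1 (adjusted p = 0.0178), without R109K replicate 1, 2, or 3 (adjusted p = 0.0159, 0.028, and 0.0244), and in a fit of only those 6 samples (adjusted p = 0.0205).

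Among 12 tested genes described as targets of PEA3 factors, 6 fell and 0 rose in WT, 6 fell and 2 rose in KK, and 7 fell and 0 rose in R109K, where 11.4%, 10.7%, and 7.23% of all genes were lower. In the same order, 14.8%, 13.8%, and 10% of all genes were higher. The count of 7 in R109K was 3 without R109K replicate 1, when MMP7, MMP9, CDH2, and ADAMTS1 lost their calls (adjusted p = 0.0511, 0.014, 0.0156, and 0.0188), and 4 without pTRE replicate 1, 2, or 3 or R109K replicate 3. In KK 4 fell without pTRE replicate 3 or KK replicate 1, and in WT 1 rose without WT replicate 2. MMP7, among the genes that fell in each line, had only 0 to 9 reads in the E2F1 samples and 20 to 32 in pTRE. Its calls in WT and KK were also lost without pTRE replicate 1, 2, or 3. Over the libraries left out, its adjusted p reached 0.0304 in WT and 0.0311 in KK. The members that fell include the matrix metalloproteinases MMP2 (-1.63 in WT, -1.58 in KK, and -1.52 in R109K) and MMP14 (-0.90, -0.88, and -1.13) and the secreted phosphoprotein SPP1 (-1.46, -1.15, and -1.28). ICAM1 and PLAU were the genes that rose in KK, and both calls were lost when single libraries were left out. MMP14, CDH2, ADAMTS1, PLAU, RFWD2, and CUL4B were named after their values were seen. Of 10 genes tested for the repression and turnover of PEA3 proteins, 1 rose (RFWD2, a ubiquitin ligase also named COP1, 0.53) and 1 fell (CUL4B, -0.64) in WT, 1 fell in KK (CUL4B, -0.77), and 0 passed in R109K. These counts lie near or under the shares of all genes higher and lower in each line. The calls of RFWD2 and of CUL4B in WT were likewise lost without single libraries, with adjusted p of up to 0.0223 and 0.0109. CIC itself averaged 119 CPM in pTRE, 124 in WT, 125 in R109K, and 118 in KK and did not pass the test in any line.

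**Figure D5:**
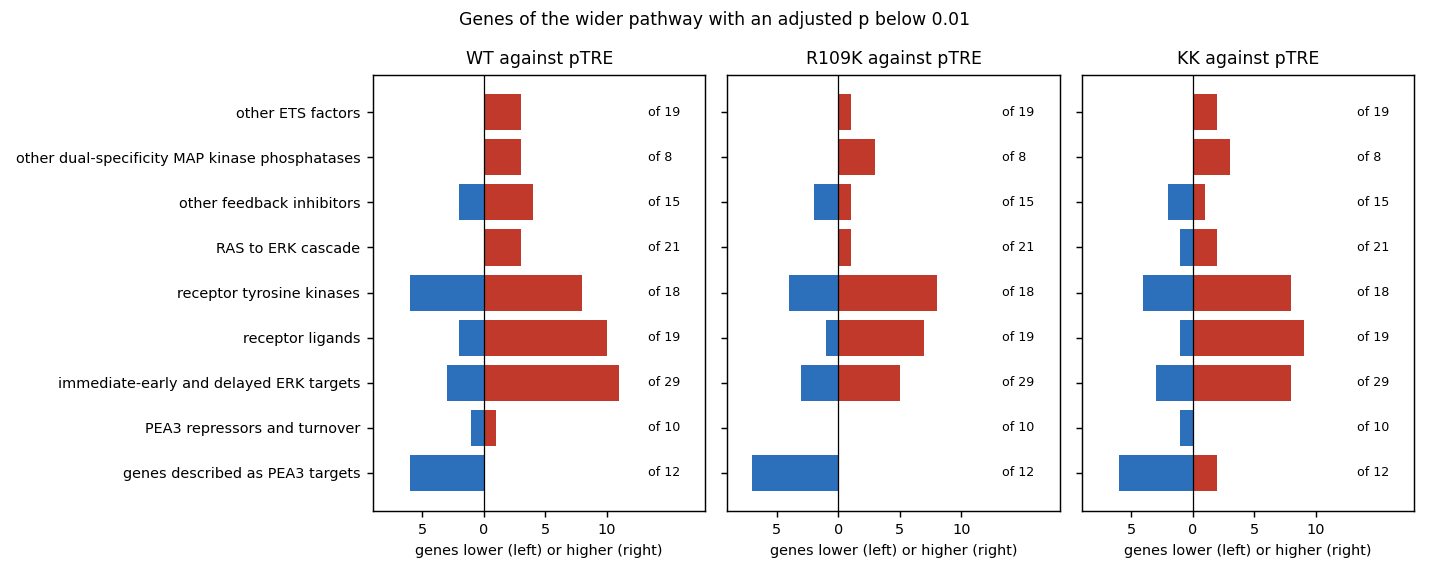
Number of genes of each pathway list that were higher (red, to the right) or lower (blue, to the left) than in pTRE at an adjusted p below 0.01 in WT, R109K, and KK, with the number tested at the right. Receptor ligands rose in 10, 7, and 9 of 19 genes, with 4 in R109K without its replicate 1 or 2 or pTRE replicate 1, and genes described as PEA3 targets fell in 6, 7, and 6 of 12, with 3 in R109K without its replicate 1.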

How the data were processed

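Per the deposited files, the values are whole-number counts of reads per gene for each of the 12 samples, 1 file per sample. According to the submitters' processing notes and methods, the authors trimmed reads with Trim Galore 0.4.3 and aligned them to hg19 with STAR 2.5.1, and libraries were directional. The annotation version and the strand setting of the counting are not given in the sources used here. Summary lines of uncounted reads were left out of library sizes and tests.

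Counts were fitted with edgeR 4.0.16 in R 4.3.3 (filterByExpr, TMM, glmQLFit with a mean per line over all 12 samples), which left 16625 genes and a common dispersion of 0.0239. Lines were compared with glmQLFTest, with Benjamini-Hochberg adjustment over all tested genes. Thresholds were those of the study's methods, an adjusted p below 0.01 and a change greater than 2-fold. Log2 levels use a prior count of 2. The members, gene lists, and motif words were chosen with earlier results of these data known. From each list, at most 3 genes per direction past both thresholds with non-overlapping replicates could be named. Of 25369 symbols, 21538 were matched to GENCODE on GRCh37. The promoter of ETV4 is not reported here. The code was tested on simulated data. Alternatives were DESeq2 1.42.0, RLE scaling, other filters, fits of 6 samples, a replicate block, glmTreat, an adjusted p below 0.05, and leaving out each replicate. Leaving WT replicate 2 out of comparisons that do not hold WT was added after seeing the data.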

Additional observations from a re-analysis of the deposited data

Results flagged for a closer look

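ETV1 moved in opposite directions against pTRE, with every R109K sample below and every WT and KK sample above the pTRE samples. The differences, with log2 fold changes of -3.15 for R109K against WT and -3.69 for R109K against KK, were not tested, since ETV1 chose the set. The change against pTRE also differed between R109K and WT by the direct edgeR comparison for FGF4 (-1.72, adjusted p = 0.00517), EPHA4 (-1.38, adjusted p = 0.0037), and RASA3 (-0.71, adjusted p = 0.00819), each with all 3 R109K samples below all 3 WT samples. Each call was lost in an edgeR fit of only the 6 samples compared (adjusted p = 0.044, 0.0205, and 0.0511), where 0 of 16179 genes passed. Leaving out any single R109K replicate also lost each call, and the replicate block lost that of RASA3.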

How the results depend on the processing

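The count of the 7 tested genes past both thresholds fell from 3 to 0 in WT, in KK, and in R109K when glmTreat tested against a 2-fold change, since the estimates of ETV4, ETV5, and SPRY4 lie near that fold. Leaving out each replicate gave 3 to 4 genes past an adjusted p of 0.01 in WT and in KK and 2 to 3 in R109K. Past both thresholds it gave 3 in WT, 2 to 3 in KK, and 1 to 3 in R109K, and it gave 0 in the direct comparisons. DESeq2, RLE scaling, both other filters, 6-sample fits, an adjusted p below 0.05, the replicate block, and leaving out WT replicate 2 kept every count within 1.5 times.

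Values that changed sign were all small and uncalled, and each did so when 1 library was left out. Their ranges over the libraries left out were -0.06 to 0.16 for SPRED1 in WT and -0.13 to 0.10 in R109K against pTRE. In R109K against WT they were -0.01 to 0.14 for ETV4 and -0.14 to 0.33 for DUSP6. In R109K against KK they were -0.05 to 0.10 for ETV4, -0.19 to 0.07 for SPRY4, -0.01 to 0.26 for SPRED1, and -0.03 to 0.15 for SPRED2. In KK against WT they were -0.02 to 0.12 for ETV4, -0.10 to 0.10 for ETV5, -0.23 to 0.24 for DUSP6 (0.24 without WT replicate 2), and -0.07 to 0.29 for SPRY2. The cause was not tested. ETV1 stayed within the replicate spread in all 69 alternatives that held it. The filter of at least 10 counts in every sample removed ETV1, which had 4 to 11 counts in R109K.

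By DESeq2, 3 of 18 receptor kinases, 3 of 19 ligands, and 4 of 29 ERK targets were lower in R109K than in WT. So were 2 of 15 genes listed as other feedback inhibitors and 1 of 8 other phosphatases. The edgeR counts were 0, 1, 1, 1, and 0 in that order. Over all genes DESeq2 called 546 of 16166 in this comparison in either direction, and the share that was lower was not counted. DESeq2 also placed 2 kinases, 2 ligands, 2 ERK targets, and 1 gene described as a PEA3 target lower in R109K than in KK, against 0 by edgeR. Over all genes it called 256 of 16166 there in either direction. Leaving out WT replicate 3 gave 4 ERK targets, 2 kinases, and 2 ligands lower in R109K than in WT by edgeR. The replicate block gave 3 ERK targets, and no filter on low counts gave 4. Over all genes, in either direction, the block called 106 of 16625 and the fit without the filter 220 of 22831. The number over all genes without WT replicate 3 was not counted, so nothing is read from those list counts. Against pTRE, 6-sample fits gave 6 ERK targets and 4 genes of that feedback list lower in R109K (edgeR on all samples, 3 and 2). DESeq2 gave 5 such targets lower in R109K and 4 genes of the feedback list lower in WT (3 and 2). Calls over all genes, in either direction, moved as well. In R109K against WT, DESeq2 called 546 of 16166 genes and edgeR 118 of 16625, and in R109K against KK 256 and 22. In R109K against pTRE, the 6-sample fit called 4144 of 16016, DESeq2 3580 of 17486, and edgeR on all samples 2868 of 16625. In WT against pTRE, DESeq2 called 5168 of 18366 and edgeR 4362 of 16625. The counts of lists were recomputed after seeing the data.

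The replicate number was not taken to pair samples. Deviations from line means correlated by 0.0436 on average over 18 same-numbered pairs (-0.295 to 0.47), and 7 of 12 samples correlated best with their own number. With the replicate block the counts were 4, 4, and 3 past an adjusted p of 0.01 in WT, KK, and R109K against pTRE, 3 each past both thresholds, and 0 in each direct comparison, as without it. With 3 samples per line, depth leaves DUSP4 and SPRY1 untested and the intervals of DUSP6 wide. RNA levels say nothing of ERK activity or PEA3 protein, and p-values measure the spread between replicate cultures of single lines.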
